A study of Mus musculus with 2 samples.

Results

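Il10-high cells were the 718 cells with the highest share of UMIs (unique molecular identifiers, counts of captured RNA molecules) on Il10, out of 14351 tumor mononuclear phagocytes. Both libraries were pooled, and cells with 200 to 7000 detected genes and at most 30% mitochondrial UMIs were ranked by their Il10 UMIs divided by their total UMIs. The highest 5% were taken. The Il10 values therefore chose these cells and are given below as a description only. The last cell taken had 18 Il10 UMIs among 38683, or 465.321 UMIs in every 1000000 (CPM), and the first cell left out had 6 among 12912, or 464.684 CPM.

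The cells came from B16 melanoma tumors transplanted into Fcmr+/+ and Fcmr-/- mice of strain C57Bl/6, and were sorted as MerTk+ CD64+ mononuclear phagocytes. By the study's design the Fcmr-/- mice lacked the gene for the putative IgM receptor in every cell, not in macrophages alone. The study's controls were littermates matched by sex, age and cage. The age and number of the mice behind each library were not given in the sources used here. Each genotype had 1 droplet library of 3' end counts, so genotype and library cannot be told apart, how much mice differed from each other could not be measured, and no difference was tested. The Fcmr+/+ library had 128408544 UMIs in 6352 kept cells and the Fcmr-/- library 124630621 UMIs in 7999 kept cells. Intervals are exact intervals at 95% and cover counting error only.

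IL-10 is a secreted cytokine that restrains inflammation. Macrophages make it after the same stimuli that switch on inflammatory genes, through NF-kB and the ERK and p38 kinases, and it acts back on them through the IL-10 receptor, JAK1, TYK2 and STAT3. In tumors it is known for lowering antigen presentation and cytokine output by myeloid cells. Il10 (ENSMUSG00000016529) spans 131019845 to 131024974 on chromosome 1 (GRCm38, plus strand), and Fcmr lies 139.1 kb away on the same chromosome.

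Il10-high cells were more frequent in the Fcmr+/+ library. They numbered 486 of 6352 Fcmr+/+ cells, or 7.65% (interval 7.01 to 8.33), and 232 of 7999 Fcmr-/- cells, or 2.90% (interval 2.54 to 3.29). The share was 2.64 times as high in Fcmr+/+ cells (interval 2.25 to 3.10), and 67.7% of Il10-high cells were Fcmr+/+ although 44.3% of all kept cells were. Over all kept cells Il10 was at 116 CPM in the Fcmr+/+ library and at 49.6 CPM in the Fcmr-/- library. Il10-high cells held 63.9% of the Il10 UMIs of the Fcmr+/+ library and 50.4% of those of the Fcmr-/- library, with 8.41% and 2.80% of all UMIs.

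Depth differed between the libraries. The median cell had 17974 UMIs in the Fcmr+/+ library and 12911 in the Fcmr-/- library, and an Il10 UMI was found in 34.5% and 19.5% of cells. After every cell was thinned to 6000 UMIs, which left out 0 Fcmr+/+ and 443 Fcmr-/- cells, the share with an Il10 UMI was 21.6% (interval 20.6 to 22.6) in the Fcmr+/+ library and 12.1% (interval 11.4 to 12.9) in the Fcmr-/- library. When Il10-high cells were chosen again from the thinned counts, their share was 3.43 times as high in Fcmr+/+ cells. No sorted cell type was known to lack Il10, so the share that free RNA gives was not measured. Every Il10-high cell had at least 3 Il10 UMIs, and the median was 17 in Fcmr+/+ and 11.5 in Fcmr-/- cells. Il10-high cells had a median of 20762 UMIs against 17717 in the remaining Fcmr+/+ cells, and 12649 against 12913 in Fcmr-/- cells. Their median mitochondrial share was 5.23% against 4.65% in Fcmr+/+ and 4.35% against 4.07% in Fcmr-/- cells. Gene counts with depth weighted or thinned and with a lower limit on mitochondrial UMIs are given below.

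**Figure D1:**
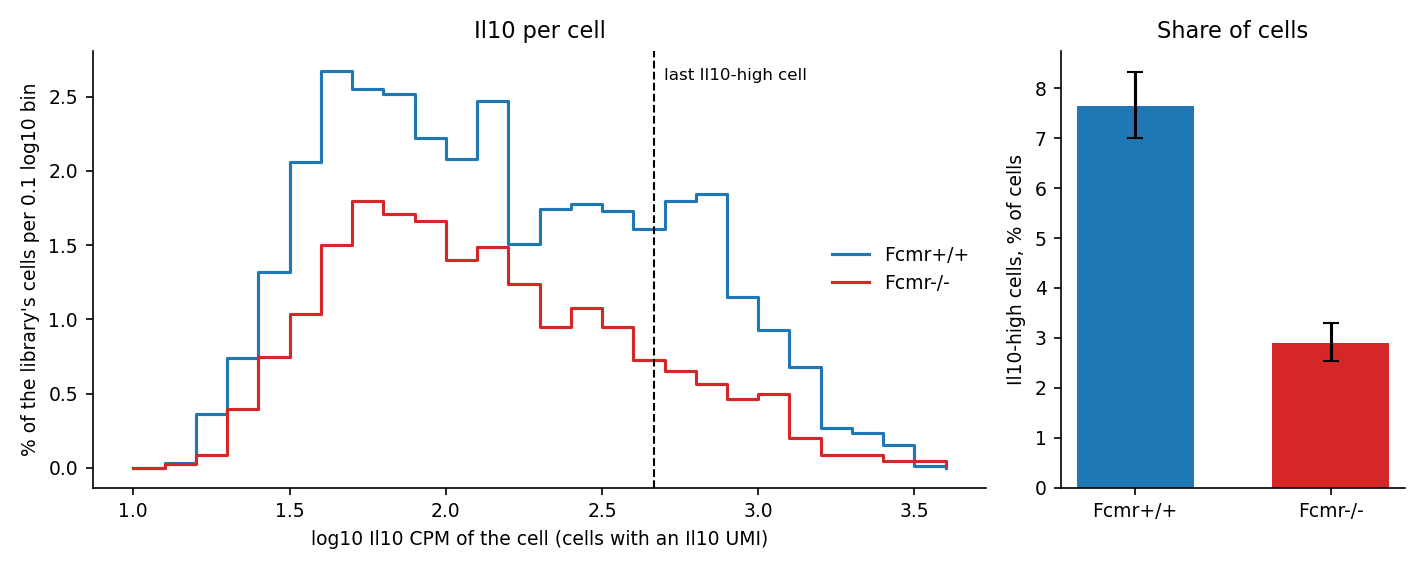
Il10 in single cells of each library. Left, percent of each library's kept cells per bin of log10 Il10 CPM, for cells with an Il10 UMI, with the last Il10-high cell as a dashed line. Right, percent of cells that were Il10-high, with exact 95% intervals. The Fcmr+/+ share of 7.65% stood above the Fcmr-/- share of 2.90%.

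Among Il10-high cells, Il10 was at 883 CPM in the Fcmr+/+ and 893 CPM in the Fcmr-/- library, and the remaining cells were at 45.9 and 25.3 CPM. The highest single cells reached 3395 CPM (Fcmr+/+) and 4227 CPM (Fcmr-/-). Of the Fcmr+/+ Il10-high cells 384 of 486 had more than 10 Il10 UMIs, and of the Fcmr-/- ones 128 of 232. Barcodes shared between the libraries were also counted. A total of 73 barcode sequences occurred in both libraries, 9 Il10-high cells carried such a barcode, and 0 barcodes were Il10-high in both. With so few shared barcodes and Il10-high shares of 7.65% and 2.9%, a count of 0 was likely in any case. It is therefore no check on the libraries. Without the cells that carried a shared barcode the ratio of shares was 2.62.

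The label of macrophage was checked first. The 10 macrophage markers were all detected in Il10-high cells and summed to 17640.0 CPM against 17150.0 in the remaining Fcmr+/+ cells, and to 14680.0 against 15160.0 in Fcmr-/- cells. Apoe was the most abundant of them, at 6707 against 6776 CPM and at 4943 against 5098 CPM. Adgre1, which encodes F4/80, was at 355 against 301 CPM in Fcmr+/+ and 392 against 357 CPM in Fcmr-/- cells. The genes of the sort markers, Mertk and Fcgr1 (CD64), were at 61.7 against 62.9 CPM and 248 against 251 CPM in Fcmr+/+ cells, and at 44.4 against 48.9 CPM and 390.1 against 394 CPM in Fcmr-/- cells. By these markers the Il10-high cells were macrophages to the same degree as the other sorted cells.

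Other cells can make IL-10, so their markers were counted too. Of the 7 T cell markers in the files, Cd3d, Cd3e, Cd3g and Cd8a were at 0 in Il10-high cells of both libraries. The list summed to 112 against 134 CPM in Fcmr+/+ and 198 against 225 CPM in Fcmr-/- cells, nearly all of it Il7r at 111 and 196 CPM in Il10-high cells. The regulatory T cell markers summed to 1.85 against 3.11 CPM and 2.58 against 7.69 CPM, led by Ikzf2 at 1.20 and 1.43 CPM in Il10-high cells. Il2ra was at 0 in both libraries and Foxp3 in the Fcmr-/- one. Of the B cell markers Cd79a, Ms4a1 and Pax5 were at 0 in both libraries, and the list summed to 11.4 against 12.6 CPM and 10.6 against 10.5 CPM, led by Cd79b at 11.4 and 10.3 CPM. The natural killer cell markers summed to 1.02 against 2.19 CPM and 1.15 against 13.4 CPM, with Ncr1, Gzma, Gzmb and Eomes at 0 in both libraries. The conventional dendritic cell markers summed to 15.6 against 22.3 CPM and 22.1 against 32.05 CPM, led by Batf3. The mast cell and basophil markers summed to 0.370 against 0.213 CPM and 1.15 against 0.561 CPM, all from Kit in Il10-high cells.

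The other marker lists were counted in the same way. The monocyte markers summed to 851 against 977 CPM in Fcmr+/+ but to 1209 against 1120.0 CPM in Fcmr-/- cells. Fn1, the most abundant of them, was at 535.5 against 546.6 CPM in Fcmr+/+ and 598.5 against 489.1 CPM in Fcmr-/- cells. Plasmacytoid dendritic cell markers summed to 441 against 429 CPM in Fcmr+/+ and 537 against 557 CPM in Fcmr-/- cells, led by Bst2, with Siglech at 0. Neutrophil markers summed to 50.5 against 56.4 CPM and 114 against 122 CPM, led by Mmp8, with Ly6g at 0 in both. Melanoma markers summed to 77.7 against 79.2 CPM and 109 against 109.6 CPM, led by Mitf. Endothelial markers summed to 9.35 against 11.3 CPM and 23.8 against 25.2 CPM, and fibroblast markers to 1.20 against 1.38 CPM and 1.15 against 1.20 CPM. Hemoglobin and other erythroid transcripts summed to 0.926 against 28.03 CPM in Fcmr+/+ and 0.573 against 14.4 CPM in Fcmr-/- cells.

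Genes that accompanied Il10 were then sought across the transcriptome. Of 6919 genes with at least 10 CPM in each library, Il10 left out, 25 were at least 1.5-fold higher in Il10-high than in remaining cells in both libraries, or 0.361%, and 10 were at least 1.5-fold lower, or 0.145%. The fold change was taken on the log2(CPM + 1) scale. The median log2 ratio of all genes tested was 9.76e-05 in Fcmr+/+ and -0.05 in Fcmr-/- cells. Of the 25, 9 were on the list of inflammatory cytokines and NF-kB targets, among them Cxcl1, Il1a, Tnf, Ptgs2 and Nlrp3, and 2 on that of immediate-early genes. The 10 were Cxcl9, AA467197, Tnfrsf9, Ccl5, Mgl2, Itgax, Ccnd2, Sh2d1b1, H2-Aa and H2-Ab1. When the remaining cells were weighted to the depth of the Il10-high cells, 28 genes were higher and 11 lower, and these held all 25 and all 10. With cells thinned and chosen again, 32 were higher and 26 lower, and these held 23 of the 25 but 3 of the 10. With at most 10% mitochondrial UMIs, 25 were higher and 12 lower, holding 24 and 10. Both sets depended on how Il10-high cells were chosen. Of the 25 and the 10, 10 and 3 passed with the top 10% of cells, 9 and 4 with at least 5 Il10 UMIs and 17 and 5 with the top 5% of each library. Some genes reached 10 CPM only through the group where they were high, namely Lif among the 25 and Cxcl9, Sh2d1b1 and Tnfrsf9 among the 10, so these had to differ.

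**Figure D2:**
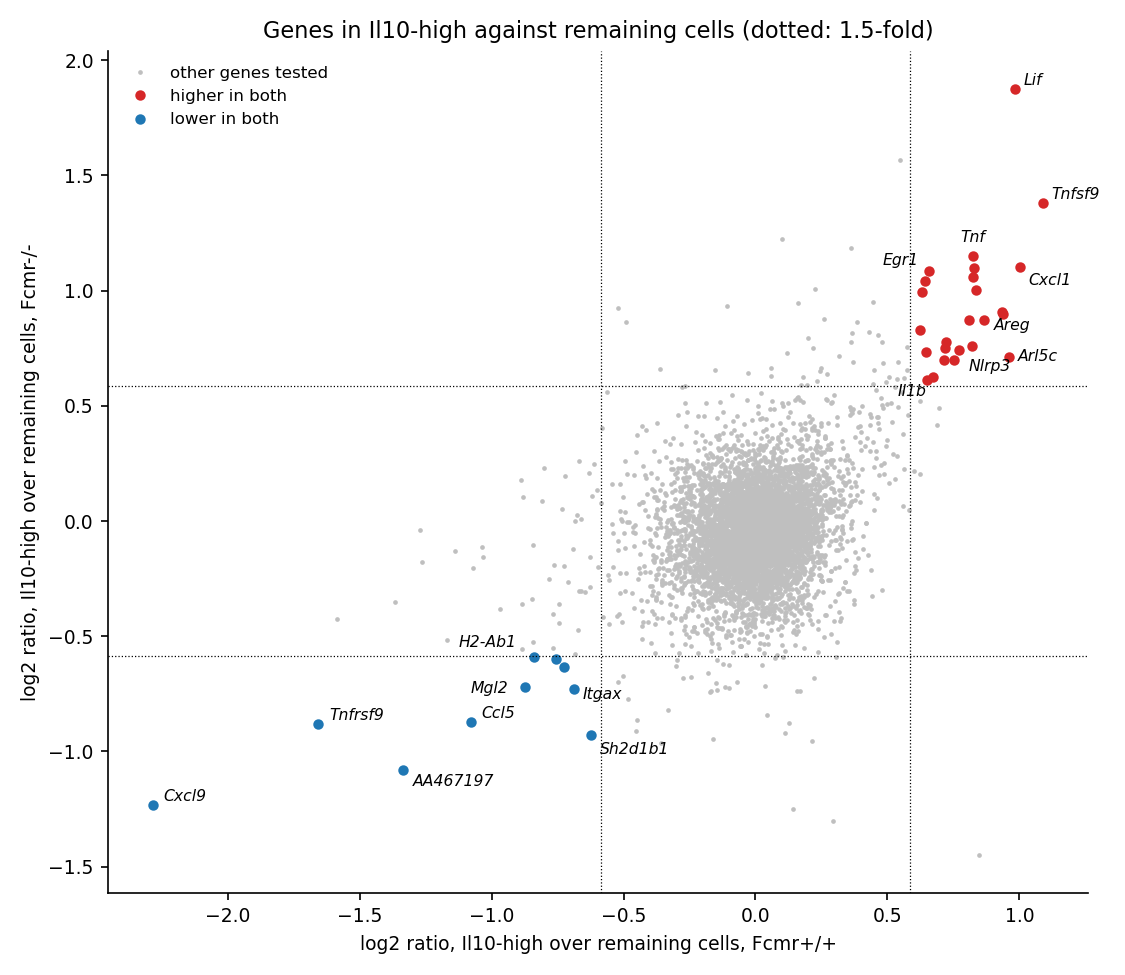
Each point is 1 of 6919 genes, placed by its log2 ratio of Il10-high over remaining cells in the Fcmr+/+ library (horizontal) and in the Fcmr-/- library (vertical). Dotted lines mark 1.5-fold. The 25 genes higher in both libraries are red, led by Tnfsf9, and the 10 lower in both are blue, led by Cxcl9.

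Cxcl1 and Cxcl2, which encode neutrophil-attracting chemokines and are neighbors on chromosome 5, were both among the 25. Their promoters are shown because both carry the same letters of the NF-kB consensus, given in capitals, within the bases just before the start site. The sequences are those of RefSeq on GRCm38.p6, plus strand, at chr5:90891125-90891244 and chr5:90903779-90903898.
Cxcl1: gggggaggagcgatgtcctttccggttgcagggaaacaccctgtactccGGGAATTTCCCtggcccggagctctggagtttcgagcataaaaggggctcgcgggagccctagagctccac
Cxcl2: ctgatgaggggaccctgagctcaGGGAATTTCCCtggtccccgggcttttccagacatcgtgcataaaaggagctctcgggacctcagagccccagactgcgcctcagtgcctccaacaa

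The capitals hold 2 matches to the consensus that overlap with a shift of 1 base, starting 71 bases before the start site of Cxcl1 and 97 bases before that of Cxcl2. Promoters were found for 18 of the 25 higher genes, and 5 of these had a match to the NF-kB consensus in the 250 bases before a start site on either strand, namely Cxcl1, Cxcl2, Lif, Nlrp3 and Tnfaip3. These were 23.8% of the windows of the higher genes. Of 7 lower genes with a promoter 2 had one, H2-Aa and Tnfrsf9. Among windows of the genes tested 9.30% had a match, and among all RefSeq windows of that length 7.25%. The AP-1 letters TGANTCA stood in the promoters of 5 higher genes (Il1a, Lif, Olr1, Rcan1 and Tnfaip3) and 4 lower genes, against 4.46% of windows of genes tested and 6.75% of all windows. The CRE letters TGACGTCA stood in those of Areg and Rcan1 and of the lower gene H2-Aa. These were 9.52% and 12.5% of the windows of the higher and lower genes, against 2.84% and 1.55%. A match is a description of letters and not a binding site. Promoters of Il10, Tnfsf9, Nfkbiz, Phlda1, Egr1, Arl5c, Cd83, Ccl24, Ccl5, Ccnd2 and H2-Ab1 are not shown.

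The inflammatory cytokines came first. Tnfsf9, the ligand of the co-stimulatory receptor 4-1BB, was at 369 CPM in Il10-high and 173 CPM in remaining Fcmr+/+ cells, and at 233 against 88.8 CPM in Fcmr-/- cells. The log2 ratios were 1.09 (interval 1.05 to 1.14) and 1.38 (interval 1.29 to 1.49). A Tnfsf9 UMI was found in 84.0% of Il10-high against 57.6% of remaining Fcmr+/+ cells and in 64.7% against 39.4% of Fcmr-/- cells, so the higher level was spread over many cells. After thinning to 6000 UMIs these shares were 66.3% against 38% and 50.7% against 25.2%. The gene of its receptor, Tnfrsf9, was rare, at 2.96 against 11.5 CPM in Fcmr+/+ and 8.89 against 17.2 CPM in Fcmr-/- cells. It passed the filter only through the remaining cells, and 59 of these held 55.5% of its UMIs in Fcmr+/+ cells. The thinned shares of cells with a Tnfrsf9 UMI were 0.823% against 3.56% in Fcmr+/+ and 4.04% against 4.46% in Fcmr-/- cells.

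Cxcl1 was at 888 against 443 CPM in Fcmr+/+ cells (log2 ratio 1.00, interval 0.97 to 1.04) and at 954 against 443 CPM in Fcmr-/- cells (log2 ratio 1.10, interval 1.06 to 1.16). Cxcl2, the most abundant of the 25, was at 5115 against 3322 CPM and at 6009.9 against 3382 CPM, with log2 ratios of 0.62 and 0.83. Both chemokines were higher in Il10-high cells of each library, although nearly all remaining cells also carried Cxcl2, at 96.7% of Fcmr+/+ and 96.4% of Fcmr-/- cells.

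Tnf, the prototype inflammatory cytokine, was at 431 against 243 CPM in Fcmr+/+ cells (log2 ratio 0.82, interval 0.78 to 0.87) and at 289 against 129.95 CPM in Fcmr-/- cells (log2 ratio 1.15, interval 1.06 to 1.25). Il1a was at 247 against 139 CPM and 286 against 137 CPM, and Il1b, the inflammasome substrate, at 2499.8 against 1566 CPM and 2965 against 1924 CPM. Nlrp3, the sensor of that inflammasome, was at 326 against 191 CPM and 275 against 164 CPM. Ptgs2, which encodes the prostaglandin synthase COX-2, was at 374 against 213 CPM in Fcmr+/+ and at 757 against 414 CPM in Fcmr-/- cells. These genes were thus higher in Il10-high cells of both libraries. Lif, a cytokine of the IL-6 family, was rarer, at 22.6 against 10.9 CPM and 36.7 against 9.28 CPM, with a UMI in 21.2% and 20.3% of Il10-high cells. It passed the filter in the Fcmr-/- library only through the Il10-high cells.

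Genes of 3 regulators of NF-kB were described next. Tnfaip3, which encodes the ubiquitin-editing enzyme A20, was at 491 against 298 CPM in Fcmr+/+ and 417 against 242 CPM in Fcmr-/- cells. Nfkbiz, which encodes the nuclear cofactor IkB-zeta, was at 626 against 380.1 CPM and 526 against 312 CPM. Nfkbia, which encodes the inhibitor IkB-alpha, was at 2372 against 1592 CPM and 2336 against 1384 CPM, with log2 ratios of 0.57 and 0.75, the first just under 1.5-fold. Tnfaip3 and Nfkbiz each had a UMI in at least 94.8% of Il10-high cells of both libraries.

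As a list, 20 of 20 tested inflammatory cytokines and NF-kB targets were higher in Il10-high cells of both libraries, 9 of them by 1.5-fold in both. Of all 6919 genes 1486 were higher in both libraries and 2318 lower, and 0.361% passed 1.5-fold upward. The list's median log2 ratio was 0.60 in Fcmr+/+ and 0.75 in Fcmr-/- cells. The Fcmr-/- median was 0.45 with the top 10% of cells, 0.36 with at least 5 Il10 UMIs and 0.51 with the top 5% of each library, and with the top 10% Il1a, Ptgs2 and Nlrp3 were at 0.53, 0.47 and 0.44 there. The list was drawn up with earlier results of these data known, and its direction is no independent support. The genes with the smallest ratios were Cd40, Ccl4 and Cxcl3 in Fcmr+/+ cells, at 0.21, 0.15 and 0.16. Il6 was at 26.1 against 11.2 CPM in Fcmr+/+ cells and at 13.8 against 8.12 CPM in Fcmr-/- cells, too low there to enter the list. Il12b was nearly absent, at 1.48 CPM in Il10-high Fcmr+/+ cells and at 0 in Fcmr-/- ones. Of 10 tested CC chemokines 8 were higher in both libraries, with medians of 0.24 and 0.39. Ccl2, which attracts monocytes, was at 2782 against 1944 CPM and 4029 against 2991 CPM. Ccl24, an eosinophil attractant, was at 103 against 66.2 CPM and 138 against 68.7 CPM, but 5 of 486 Fcmr+/+ cells held 38.4% of its UMIs and 2 of 232 Fcmr-/- cells 35.0%.

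Il10 was also read across all cells by the summed level of the inflammatory list. Cells of both libraries were pooled and ranked into 4 equal bins. Il10 was at 21.8, 73.6, 152 and 220.4 CPM from the lowest to the highest bin in Fcmr+/+ cells, and at 17.5, 37.5, 58.1 and 96.9 CPM in Fcmr-/- cells. Il10 was higher in each next bin of both libraries, and in every bin higher in Fcmr+/+ cells. Of the Il10-high cells 46.3% of Fcmr+/+ and 56.03% of Fcmr-/- ones lay in the highest bin, and 2.47% and 4.31% in the lowest. Within the highest bin Il10-high cells made up 14.7% of Fcmr+/+ cells (interval 13 to 16.6) and 6.31% of Fcmr-/- cells (interval 5.29 to 7.44).

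**Figure D3:**
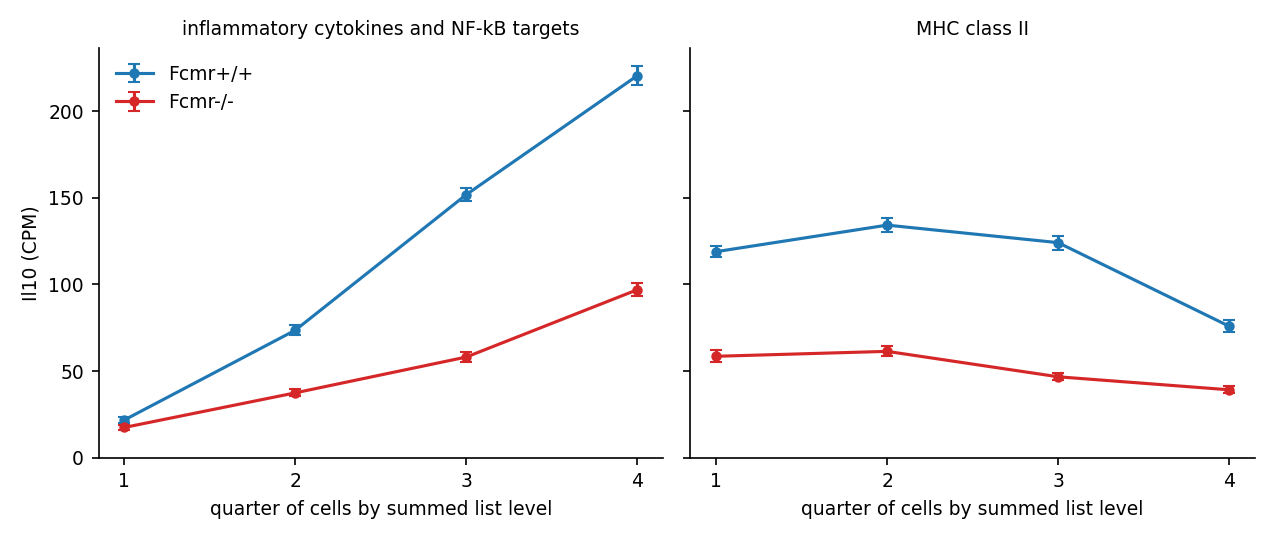
Il10 CPM (vertical) in bins of all kept cells ranked by the summed level of 2 gene lists (horizontal, 1 lowest), by library, with exact 95% counting intervals. On the left Il10 is at 21.8 and 17.5 CPM in the lowest bin of the inflammatory list and at 220.4 and 96.9 CPM in the highest. On the right it is lowest in the highest bin of MHC class II, at 75.9 and 39.2 CPM.

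Early response genes followed in part. Dusp2, which encodes a nuclear phosphatase of ERK and p38, was at 378 against 197 CPM in Fcmr+/+ and 303 against 161 CPM in Fcmr-/- cells, with log2 ratios of 0.94 and 0.91. Egr1, a transcription factor induced by ERK, was at 303 against 192 CPM in Fcmr+/+ and 151 against 70.5 CPM in Fcmr-/- cells. Nr4a1, an orphan nuclear receptor, was at 457 against 278 CPM and 352 against 216 CPM. Of 18 tested immediate-early genes 11 were higher in both libraries, against 1486 of all 6919 genes, and 2 passed 1.5-fold, against 0.361%. The list medians were 0.24 and 0.35. Jun was at 374 against 493 CPM in Fcmr+/+ cells and at 341 against 294 CPM in Fcmr-/- cells, so the direction was not shared by the whole family.

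Tumors were digested at 37C before sorting, which can itself induce stress genes, so those were counted beside them. The 10 heat shock and dissociation genes had a median log2 ratio of 0.09 in Fcmr+/+ and 0.35 in Fcmr-/- cells. Hspa1a was at 275 against 257 CPM in Fcmr+/+ and at 615 against 263 CPM in Fcmr-/- cells, and Hspa1b at 125 against 107 CPM and 269 against 133 CPM. The share of cells with an Hspa1a UMI differed less, at 56.8% against 55.2% in Fcmr+/+ and 52.2% against 48.2% in Fcmr-/- cells. The part of dissociation in the inflammatory and early response values was not tested.

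The rest of the 25 had varied roles. Areg, an EGF receptor ligand, was at 71.3 against 38.7 CPM and 77.4 against 41.8 CPM, but rested on few cells, since 5 of 486 Fcmr+/+ cells held 47.8% of its UMIs. Its Fcmr-/- log2 ratio was 0.87, but 1.46 with the top 2.5% of cells and 0.18 with the top 10%. Mir155hg, the host transcript of the inflammatory miR-155, was at 26.1 against 13.2 CPM and 25.2 against 13.1 CPM. Olr1, an oxidized LDL receptor, was at 24.995 against 13.7 CPM and 22.4 against 12.8 CPM. Marcksl1 was at 396 against 221 CPM and 298 against 148 CPM, and Phlda1 at 243 against 137 CPM and 198 against 92.02 CPM. Rcan1, an inhibitor of calcineurin, was at 74.7 against 43.9 CPM and 43.9 against 26.6 CPM, and Id3, an inhibitor of helix-loop-helix factors, at 128 against 81.3 CPM and 96.3 against 46.3 CPM. Arl5c and Rhou, both small GTPase genes, had log2 ratios of 0.96 and 0.71 and of 0.65 and 0.73. Cd83, a maturation marker of antigen-presenting cells, was at 731 against 465 CPM and 597 against 390.03 CPM.

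Transcripts of MHC class II genes were lower. H2-Ab1, which encodes a class II beta chain, was at 446 against 799.9 CPM in Fcmr+/+ cells (log2 ratio -0.84, interval -0.88 to -0.80) and at 749.6 against 1129 CPM in Fcmr-/- cells (log2 ratio -0.59, interval -0.65 to -0.54). H2-Aa, the matching alpha chain gene, was at 597 against 1010.3 CPM and 932 against 1413 CPM, and Cd74, the invariant chain, at 1602 against 2358 CPM and 2447 against 3334 CPM. All 6 tested class II genes were lower in Il10-high cells of both libraries, against 2318 of all 6919 genes. Of the 6, 2 passed 1.5-fold in both, against 0.145% of all genes. The list's medians were -0.66 and -0.57. In Fcmr-/- cells H2-Aa and H2-Ab1 stayed lower but fell short of 1.5-fold with other choices of cells, at -0.51 and -0.39 with the top 2.5%, -0.46 and -0.50 with the top 10%, -0.40 and -0.50 with at least 5 Il10 UMIs, -0.50 and -0.50 with the top 5% of each library and -0.38 and -0.28 with thinned cells.

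The share of cells with class II transcripts depended on depth. An H2-Ab1 UMI was found in 79.4% of Il10-high and 78.5% of remaining Fcmr+/+ cells and in 82.8% against 84.6% of Fcmr-/- cells. After thinning to 6000 UMIs these shares were 56.6% against 58.3% and 67.7% (interval 61.2 to 73.8) against 73.3%. For H2-Aa the thinned shares were 52.1% against 53.9% in Fcmr+/+ cells and 58.3% (interval 51.5 to 64.8) against 70.1% in Fcmr-/- cells, so in the Fcmr-/- library fewer Il10-high cells had an H2-Aa UMI. Across bins of all cells by summed class II level, Il10 was at 119, 134, 124 and 75.9 CPM in Fcmr+/+ and at 58.6, 61.4, 46.7 and 39.2 CPM in Fcmr-/- cells. Il10 did not fall step by step with class II, and was lowest in the highest bin of both libraries. MHC class I genes had medians of -0.09 and -0.19 over 14 genes, 11 of them lower in both libraries, against 2318 of all 6919 genes, and 0 by 1.5-fold.

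Interferon-induced genes were lower in part. Cxcl9, a chemokine induced by interferon-gamma, was at 2.41 against 15.6 CPM in Fcmr+/+ cells (log2 ratio -2.28) and at 79.7 against 189 CPM in Fcmr-/- cells (log2 ratio -1.23). In Fcmr+/+ cells it passed the filter only through the remaining cells, so there it had to differ and is a description only. Its Fcmr-/- ratio was -1.48 with the top 2.5% of cells, -0.45 with the top 10% and -0.33 with at least 5 Il10 UMIs. In Fcmr+/+ cells a Cxcl9 UMI was rare in both groups, at 2.06% of Il10-high and 2.78% of remaining cells, and 59 of 5866 remaining cells held 92.5% of its UMIs. Ccl5, a T cell attractant, was at 15.9 against 34.8 CPM and 33.3 against 61.7 CPM, and was also concentrated, since 59 remaining Fcmr+/+ cells held 63.8% of its UMIs. Its Fcmr-/- log2 ratio was -0.87, and -0.96 with the top 2.5% of cells. It fell short of 1.5-fold at -0.40 with the top 10% and -0.24 with the top 5% of each library. In Fcmr-/- cells a Ccl5 UMI was as frequent in Il10-high as in remaining cells, at 13.4% and 13.2%. Of 16 tested genes of the type II interferon response 12 were lower in both libraries and 2 higher, against 2318 and 1486 of all 6919 genes, with medians of -0.23 and -0.22. Irf1, an early interferon-gamma target that NF-kB also induces, was 1 of the 2, at 67.5 against 47.5 CPM and 75.4 against 58.9 CPM.

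The type I interferon list had medians of -0.23 and -0.13 over 27 genes. Of these 15 were lower in both libraries and 4 higher, against 2318 and 1486 of all 6919 genes. None was lower by 1.5-fold in both, against 0.145% of all genes. The Fcmr-/- median changed sign with the choice of cells, to 0.04 with the top 10%, 0.02 with at least 5 Il10 UMIs and 0.08 with the top 5% of each library. Rsad2, which encodes the antiviral protein viperin, was at 82.2 against 182 CPM in Fcmr+/+ and at 226 against 247 CPM in Fcmr-/- cells. Ifit1 was at 32.03 against 78.7 CPM and 65.6 against 67.4 CPM. The difference between the libraries in these genes was not tested.

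Mgl2 and Itgax, both used as markers of dendritic cells and some macrophages, were also among the 10 lower genes. Mgl2 was at 25.6 against 47.8 CPM and 20.4 against 34.2 CPM, and Itgax, which encodes CD11c, at 19.1 against 31.3 CPM and 16.3 against 27.7 CPM. AA467197, the host transcript of miR-147, was at 28.5 against 73.5 CPM and 33.8 against 72.5 CPM. Sh2d1b1, an adaptor gene of SLAM receptors, and Ccnd2, which encodes cyclin D2, were also lower, at 7.68 against 12.4 CPM and 5.45 against 11.3 CPM and at 16.4 against 27.7 CPM and 23.8 against 37.5 CPM. Chchd10 and the class II gene H2-Eb1 completed the 12 lowest ranked genes. Their log2 ratios were -0.682 and -0.885 in Fcmr+/+ cells but -0.577 and -0.557 in Fcmr-/- cells, short of 1.5-fold there. Ccl17, another dendritic cell chemokine, was at 0.463 against 13.9 CPM in Fcmr+/+ cells and at 0 against 5.59 CPM in Fcmr-/- cells, where a count of 0 allows up to 0.860 CPM. It did not reach 10 CPM in each library, and 1.81% of the remaining Fcmr+/+ cells held its UMIs.

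**Figure D4:**
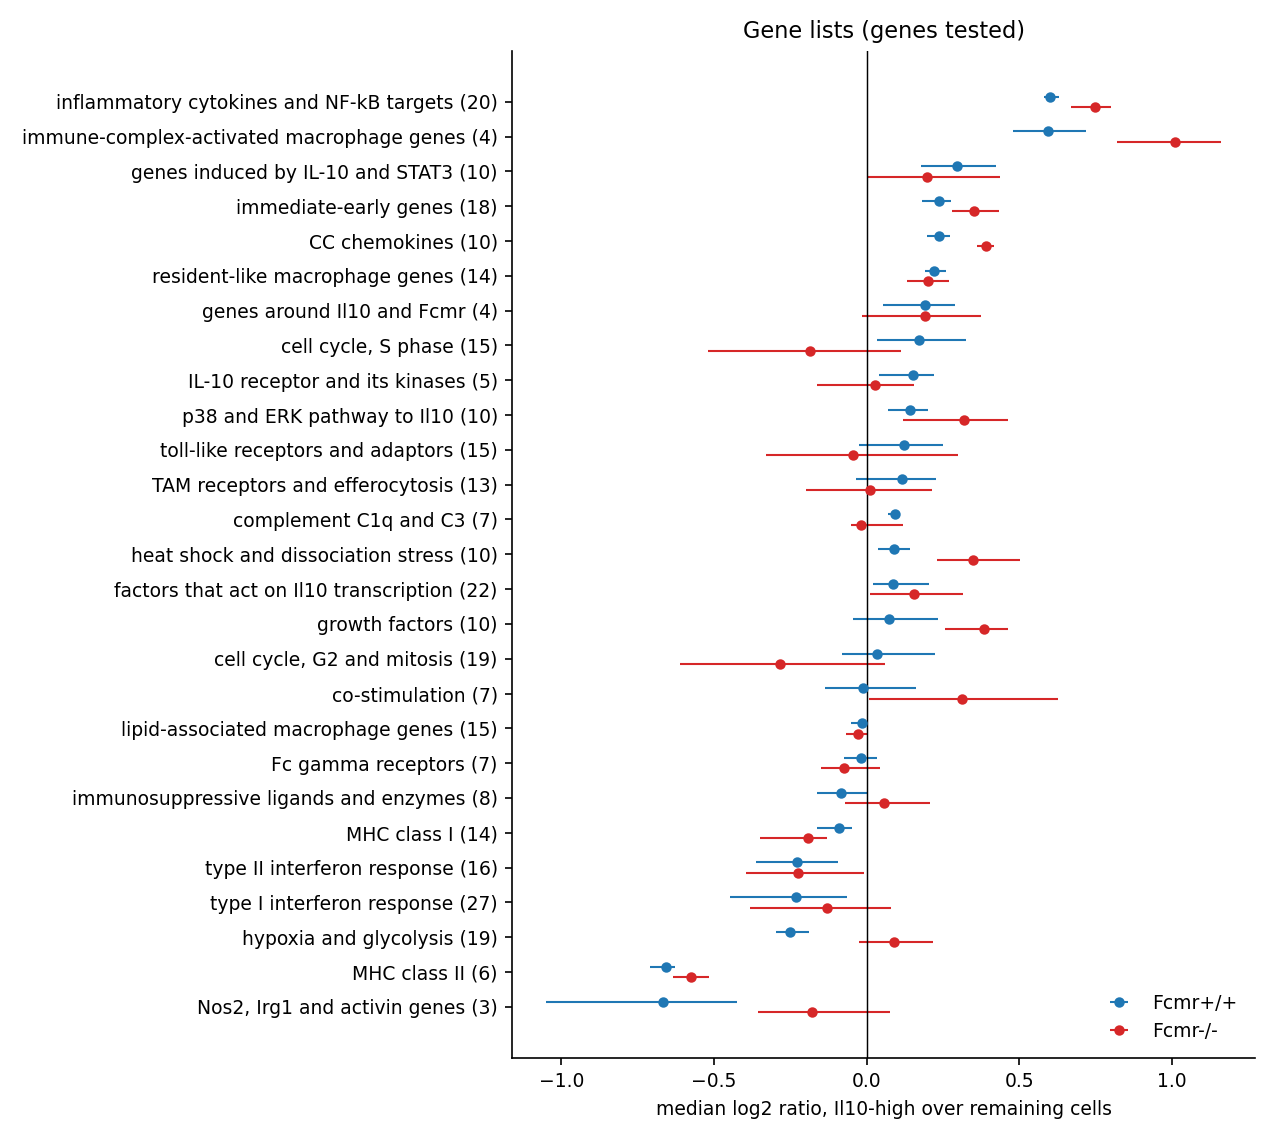
Median log2 ratio of Il10-high over remaining cells (horizontal) for 27 gene lists (vertical, genes tested in brackets), with Fcmr+/+ in blue and Fcmr-/- in red. Bars run between the medians of the genes' lower and upper 95% counting bounds. Inflammatory genes stand at 0.60 and 0.75 and MHC class II at -0.66 and -0.57.

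Genes of the IL-10 pathway differed by less than 1.5-fold. Il10ra, the ligand-binding receptor chain, was at 54.8 against 46.7 CPM in Fcmr+/+ and 49.9 against 44.6 CPM in Fcmr-/- cells, and the 5 genes of the receptor and its kinases had medians of 0.15 and 0.03. Stat3 was at 114 against 116 CPM and 94.3 against 103 CPM. Of 10 tested genes induced by IL-10 and STAT3, 8 were higher in both libraries, against 1486 of all 6919 genes, and 0 by 1.5-fold, with medians of 0.30 and 0.20. Socs3, the feedback inhibitor of STAT3, was at 252 against 183 CPM and 222 against 149 CPM, and Il1rn, the IL-1 receptor antagonist, at 413 against 305 CPM and 542 against 405 CPM.

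Factors that act on Il10 transcription differed by less than 1.5-fold. Their 22 tested genes had medians of 0.09 and 0.15, with 11 higher and 4 lower in both libraries, against 1486 and 2318 of all 6919 genes. Maf, an activator of Il10 in macrophages, was at 473 against 409 CPM in Fcmr+/+ and at 433 against 444 CPM in Fcmr-/- cells. Junb was at 1643 against 1192 CPM and 1461 against 1089 CPM. Nfkb1 was at 179 against 126 CPM in Fcmr+/+ cells and at 117 against 104 CPM in Fcmr-/- cells. Of the 10 tested genes of the p38 and ERK pathway to Il10, Dusp2 was the one past 1.5-fold in both libraries. Over all 6919 genes 0.361% passed upward. The medians of the pathway list were 0.14 and 0.32. Mapkapk2, which encodes a kinase downstream of p38 and lies 28.7 kb from Il10, was at 151 against 128 CPM and 149 against 119 CPM. Of the 4 genes around Il10 and Fcmr that were abundant enough, 3 were higher in both libraries and 1 lower, against 1486 and 2318 of all 6919 genes. Their median was 0.19 in each library. Fcmr had 7 and 6 UMIs in all kept cells of the Fcmr+/+ and Fcmr-/- libraries, too few to compare, so these counts do not check the genotype labels.

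Resident-like macrophage genes were slightly higher. Of 14 tested, 10 were higher in both libraries, against 1486 of all 6919 genes, 2 were lower and 0 passed 1.5-fold in both, with medians of 0.22 and 0.20. Against cells with no Il10 UMI the medians were 0.3 and 0.26 in Il10-high cells. In other cells with an Il10 UMI they were 0.22 and 0.34, so the higher level was not confined to Il10-high cells. Mrc1, the mannose receptor CD206, was at 1075 against 892 CPM and 733 against 624 CPM. Folr2 was at 278 against 239 CPM and 216 against 163 CPM, and Pf4 at 4641 against 3922 CPM and 4805 against 3058 CPM. Lipid-associated macrophage genes were level, with medians of -0.02 and -0.03. Fc gamma receptor genes were at -0.02 and -0.07, and the TAM receptor and efferocytosis genes at 0.12 and 0.01. Axl, a TAM receptor gene, was at 29.3 against 37.8 CPM and 30.96 against 61.4 CPM.

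Immunosuppressive ligands and enzymes as a list were not higher together with Il10. Their 8 tested genes had medians of -0.08 and 0.06. Ptgs2 alone was higher by 1.5-fold in both libraries, against 0.361% of all 6919 genes. The 3 tested genes of the Nos2, Irg1 and activin program had medians of -0.67 and -0.18. Immune-complex-activated macrophage genes had medians of 0.59 and 1.01, over the 4 of 8 genes that were abundant enough, namely Cd86, Areg, Hbegf and Tnf. Their Fcmr-/- median was 0.44 with the top 10% of cells and 1.48 with the top 2.5%. Growth factor genes had medians of 0.07 and 0.38 over 10 genes.

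Levels were also read by the amount of Il10, which is the value that chose the cells, so the steps are a description. The Il10-high cells of each library were split at the median Il10 share into a lower and an upper part. Tnf was at 217 CPM in Fcmr+/+ cells with no Il10 UMI, at 289 CPM in other cells with Il10, at 346 CPM in the lower and at 522 CPM in the upper part, and at 126, 145, 201 and 405 CPM in Fcmr-/- cells. Cxcl1 was at 393, 531, 810.2 and 971 CPM in Fcmr+/+ and at 438, 462, 739.8 and 1235 CPM in Fcmr-/- cells. Both were higher at each step of these libraries. Depth differed between these groups too, at medians of 15796, 22570.5, 21865 and 19780 UMIs in Fcmr+/+ cells. In Fcmr-/- cells the medians were 12185, 17810, 15000 and 10939 UMIs, so the upper part was the shallowest. The part of depth in the steps was not tested. Il1b was at 1536, 1619, 2299.8 and 2714 CPM in Fcmr+/+ cells, but at 1992, 1685, 2006 and 4222 CPM in Fcmr-/- cells, where the upper part alone stood well apart. H2-Ab1 was at 901, 621, 540.03 and 346 CPM in Fcmr+/+ cells and at 1185, 936, 724 and 784 CPM in Fcmr-/- cells, lower at each step in the first library and not in the last step of the second.

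**Figure D5:**
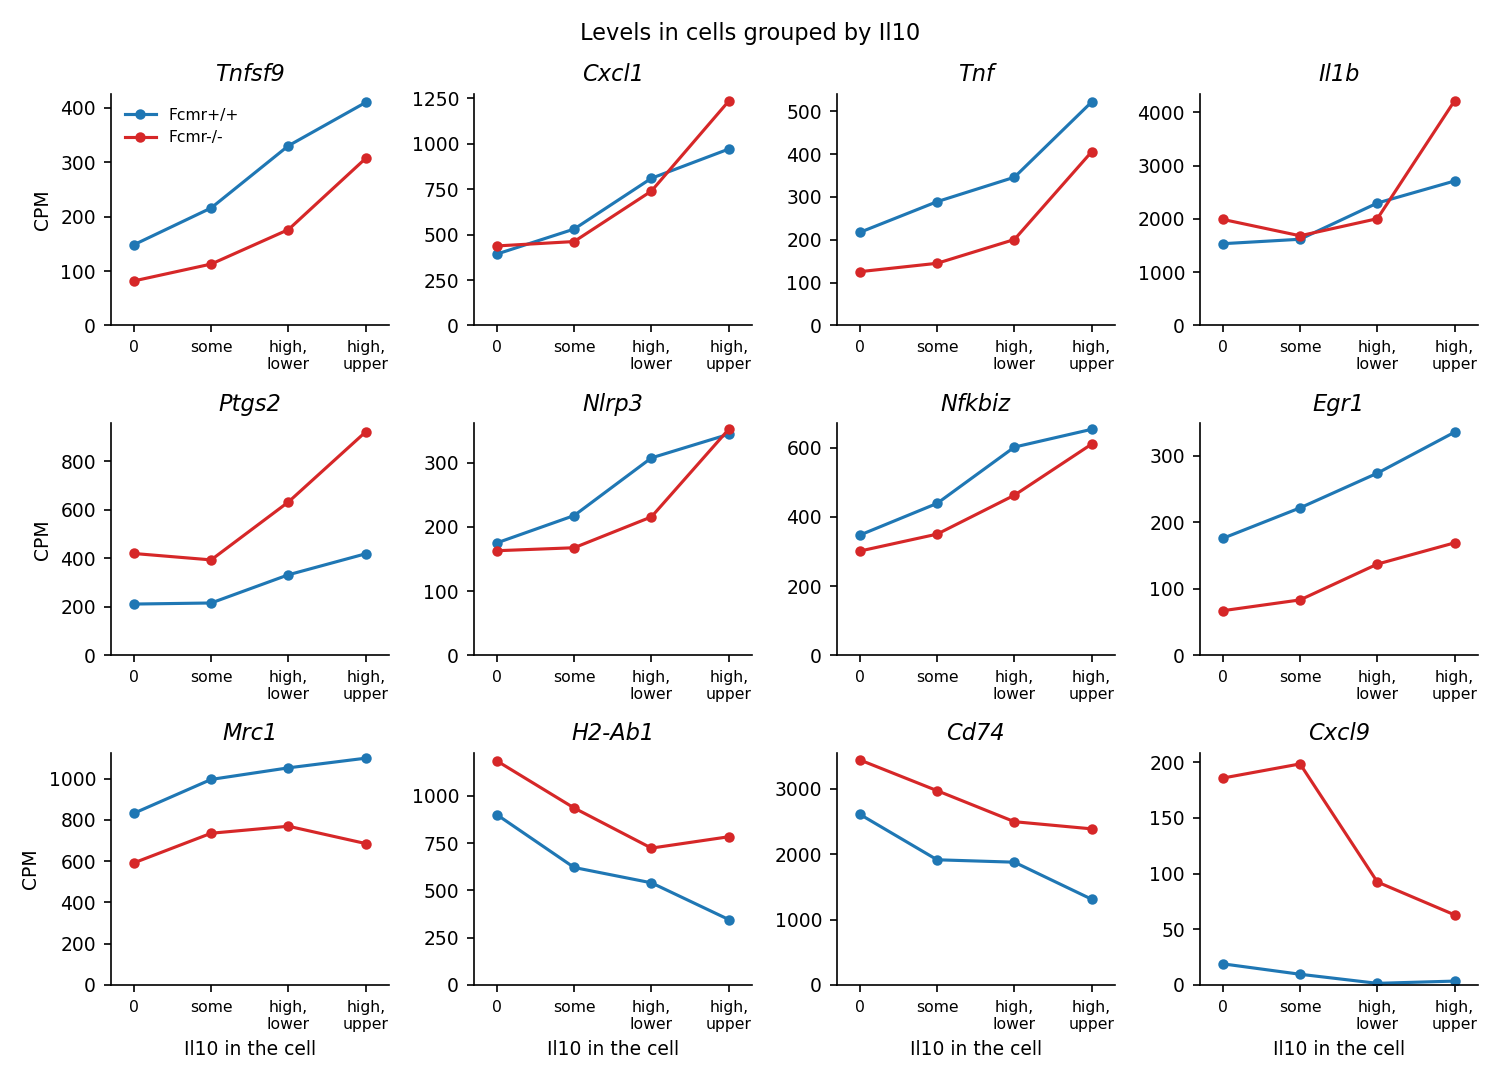
CPM (vertical) of 12 genes in cells with no Il10 UMI, other cells with Il10, and the lower and upper part of the Il10-high cells (horizontal), by library. Tnf runs from 217 to 522 CPM in Fcmr+/+ and from 126 to 405 CPM in Fcmr-/- cells, while H2-Ab1 runs from 901 to 346 CPM in Fcmr+/+ cells.

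Il10-high cells of both genotypes were also set side by side. The log2 ratio of Fcmr-/- over Fcmr+/+ Il10-high cells was 1.02 for Ptgs2 and -1.0 for Egr1, and in the remaining cells it was 0.96 and -1.43. The type I interferon genes had a median log2 ratio of Fcmr-/- over Fcmr+/+ of 0.82 in Il10-high and 0.66 in remaining cells, and the type II genes of 0.99 and 1.12. MHC class II genes were at 0.63 in Il10-high and 0.50 in remaining cells, so in these lists the libraries differed in the same direction in Il10-high and in remaining cells. The inflammatory list was at 0.05 and -0.02. For hypoxia and glycolysis genes the values were 0.43 and 0.08. Since each genotype was 1 library, none of these differences could be tested.

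Il10-high cells were compared with 3 other groups of 718 cells taken in the same way, by Il1b and Cxcl2, by Nos2, Irg1 and Inhba, and by Mrc1, Cd163 and Folr2. Il10-high cells made up 11.7% of the Il1b and Cxcl2-high Fcmr+/+ cells (interval 8.09 to 16.2) against 7.48% outside that group, and 5.74% against 2.73% in Fcmr-/- cells. They made up 11.2% of the Mrc1, Cd163 and Folr2-high cells against 7.37% outside in Fcmr+/+, and 6.53% against 2.79% in Fcmr-/- cells. In the Nos2, Irg1 and Inhba-high group the shares were 4.08% (interval 1.12 to 10.1) against 7.71% and 3.07% against 2.89%. The Il1b and Cxcl2-high group was 265 of 6352 Fcmr+/+ and 453 of 7999 Fcmr-/- cells, and held 6.38% and 11.2% of the Il10-high cells.

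The 4 groups differed in what went with their defining genes. The inflammatory list, which contains Il1b and Cxcl2, had medians of 1.44 and 1.65 in the Il1b and Cxcl2-high cells and of -0.12 and -0.23 in the Mrc1, Cd163 and Folr2-high cells, against 0.60 and 0.75 in Il10-high cells. Resident-like genes were at -1.24 and -1.74 in the Il1b and Cxcl2-high and at -1.29 and -1.35 in the Nos2, Irg1 and Inhba-high cells, against 0.22 and 0.20 in Il10-high cells. The Nos2, Irg1 and Inhba-high cells had inflammatory medians of 1.27 and 1.17, and the Mrc1, Cd163 and Folr2-high cells, chosen by genes of the resident-like list, had resident-like medians of 1.42 and 1.72. Relative to the remaining cells both lists were thus higher in Il10-high cells of both libraries, each by less than in the groups with the highest medians. For the resident-like list, other cells with an Il10 UMI also stood above cells with none, by 0.22 and 0.34. MHC class II was at -2.04 and -1.38 in the Mrc1, Cd163 and Folr2-high cells, further below the remaining cells than in Il10-high cells. Mitosis genes were at -3.05 and -2.89 in the Il1b and Cxcl2-high cells, at -0.15 and 0.17 in the Mrc1, Cd163 and Folr2-high cells and at 0.03 and -0.29 in Il10-high cells.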

How the data were processed

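For each library the authors deposited a matrix of raw UMI counts, genes by cells. The submitters' processing notes name Cell Ranger, mm10 (GRCm38) and Seurat 2.1.0. Files listed 27998 genes and 14409 barcodes. Counts were used as deposited, and no normalized value of the authors was used. Cells with 200 to 7000 genes and at most 30% mitochondrial UMIs were kept. UMIs were summed over the cells of a group and scaled to 1000000 UMIs of that group (CPM). Genes with at least 10 CPM in each library were compared as log2 ratios with 1 CPM added, and a gene was called higher or lower when the ratio passed 1.5-fold in each library.

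Poisson intervals were exact for levels, Clopper-Pearson intervals for shares and exact conditional intervals for ratios. They cover counting error only, and since UMIs of a gene gather in some cells they are too narrow rather than too wide. With 1 library per genotype no p-value was computed. Named genes were the 20 highest and 12 lowest by the smaller of both libraries' ratios, plus genes of the lists and genes described as exceptions. Members and lists were chosen with earlier results of these data known.

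Scrublet, run through scanpy 1.11.5, called 0 doublets in each library. No cell was therefore removed as a doublet, and removal of the highest scores was an alternative. Computation used Python 3.11.15, numpy 2.4.6, scipy 1.17.1 and pandas 2.3.3, and the steps were tested on simulated data. Promoters were the 250 bases before RefSeq start sites. Cebpd, Mx2, Trac, Trbc2, Ighm and Ighd were not analysed here, and some genes of the lists are not reported by name.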

Additional observations from a re-analysis of the deposited data

Results flagged for a closer look

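Several lists had median log2 ratios of Il10-high over remaining cells of opposite sign in the 2 libraries, and none of these differences was tested. Hypoxia and glycolysis genes were at -0.252 in Fcmr+/+ and 0.088 in Fcmr-/- cells, with 1 of 19 genes higher in the first and 18 of 19 in the second, against 3464 and 2623 of all 6919 genes. S phase genes were at 0.171 and -0.185, and G2 and mitosis genes at 0.0339 and -0.285. The opposite signs did not hold under every choice of cells, since with at least 5 Il10 UMIs the Fcmr-/- medians were 0.24 for S phase, 0.15 for G2 and mitosis and -0.07 for hypoxia. Monocyte markers were at -0.365 and 0.158, and macrophage markers at 0.0348 and -0.0446. Co-stimulation genes were at -0.0122 and 0.313, and toll-like receptors and adaptors at 0.121 and -0.0453. Complement genes were at 0.0912 and -0.0181, and immunosuppressive ligands and enzymes at -0.0828 and 0.0578.

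Single genes of the lists also had opposite signs in the libraries, with counting intervals on either side of 0, and this was not tested either. Bhlhe40, a transcription factor gene that acts on Il10, was at -0.34 in Fcmr+/+ and 0.28 in Fcmr-/- cells, and Map3k8, a kinase of the ERK pathway, at -0.38 and 0.30. Oasl1, an interferon-induced gene, was at -0.36 and 0.26, and Pdgfa, a growth factor gene, at -0.42 and 0.39. Hspb1, a small heat shock protein gene, was at -0.49 and 0.86, but 5 Fcmr+/+ cells held 80.9% and 2 Fcmr-/- cells 86.1% of its UMIs in Il10-high cells.

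Il10 was also present in the cells that the filters removed. The 40 removed Fcmr+/+ cells had 270 Il10 UMIs, or 102 CPM, and the 18 removed Fcmr-/- cells had 102, or 87.1 CPM. Of these cells 33 and 15 had over 7000 genes.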

How the results depend on the processing

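Of 19 alternatives 10 changed which cells were Il10-high or kept. The Il10-high share was higher in Fcmr+/+ cells under these, except under the one that fixed 5% in each library, and the ratio was 2.20 with the top 10% of cells and 3.43 after thinning. The counts of genes depended on the threshold. The top 2.5% gave 38 higher and 29 lower genes, the top 10% gave 10 and 6, and at least 5 Il10 UMIs gave 10 higher. Thinning gave 26 lower, and a mean over cells 19. A filter of 5 CPM gave 17 lower, 50 CPM gave 3, and no filter gave 38 higher and 53 lower. A 2-fold threshold gave 2 and 2. Leaving out cells with markers of other types gave 48 and 121, but removed 12167 cells (84.8%), mostly through Il7r, Mitf and Mmp8, and left 77 and 32 Il10-high cells. There Lif was at -0.13 and Chchd10 at 0.07 in Fcmr+/+ cells, Mgl2 at 0.02 in Fcmr-/- cells, immunosuppressive genes at 0.12 and lipid-associated genes at 0.01 in Fcmr+/+ cells. Immunosuppressive genes in Fcmr+/+ cells were also at 0.02 with the top 2.5% and with 50 CPM, lipid-associated genes at 0.0043 with the top 2.5%, genes around Il10 at -0.0024 with no filter, and Olr1 in Fcmr-/- cells at -0.0045 with at least 5 Il10 UMIs. The cause was not tested. Of 970 values of lists 803 stayed within the counting interval. In all 68 of the 970 had the other sign, 6 of them for lists whose interval did not include 0. Among the 68, for lists whose interval included 0, were type I interferon genes in Fcmr-/- cells (0.08 with the top 5% of each library). So were the Nos2, Irg1 and activin genes in Fcmr-/- cells (0.25 with the top 2.5%) and G2 and mitosis genes in Fcmr+/+ cells (-0.23 with the top 2.5%). Of 1188 values of genes 836 stayed within the interval and 4 had the other sign. Leaving out shared barcodes was chosen after seeing the data. No paired analysis was possible because each genotype had 1 library.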
